A study of Mus musculus with 6 samples.

Results

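The serpins are a family of proteins named for serine protease inhibition, and their genes carry a letter for the clade and a number for the member. The members described here are all rows of the count table whose symbol begins with Serpin, a clade letter from a to i and a number. There were 42 of them among the 20140 genes listed. Clade a had 25 members, clade b 8, clades e and f 2 each, and clades c, d, g, h and i 1 each. The angiotensinogen gene, which belongs to clade a by descent but is not named as a serpin in the table, was not taken by this rule.

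RNA was sequenced from whole mouse livers taken on day 21, with 2 livers in each of 3 groups. The labels name the groups sham, intra-C and intra-S. The labels give PBS for the sham mice, which the paper calls sham-operated. By its description of the models, intra-C mice carried CT26 cells implanted into the cecum, and intra-S mice received CT26 cells into the spleen. CT26 is a colorectal carcinoma line derived from BALB/c mice, the strain named in the paper for these hosts, so tumor reads in a liver carry mouse sequence as well. The site of implantation and the group cannot be told apart. The labels name no genetic modification, age or sex. The cecal model is used for the liver before metastases appear and the splenic model for the liver with metastases, so the comparisons ask how the hepatic serpins differ from sham at each of these stages.

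Most serpins act as suicide substrates. The target protease cuts an exposed loop of the serpin, the serpin changes its fold, and both proteins stay locked in an inactive complex that is cleared from the circulation. Hepatocytes secrete most serpins of the plasma, including the main inhibitors of elastase, thrombin, plasmin and the first complement proteases, and several of them belong to the acute phase response. Clade b serpins mostly stay inside the cell, and a few family members carry hormones or assist collagen folding and inhibit no protease.

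Each liver had between 32838321 and 43368309 counts. Hepatocyte markers were abundant in all 6 libraries, with a summed level of 150080 to 252450 CPM (counts relative to the library total, scaled by the trimmed mean of M values, TMM). Alb alone was at 84337 to 156540 CPM. Of the 12 hepatocyte markers 1 fell in intra-C livers, and 1 rose and 2 fell in intra-S livers. The livers of the intra-S group lay far apart. Of the 9280 genes with a mean of at least 5 CPM, 17.7% differed more than 2-fold between the intra-S livers, against 1.27% in sham and 3.28% in intra-C. Several marker lists of other cells also moved with the groups. Among all tested genes 4.92% rose and 2.38% fell in intra-C, and 6.78% rose and 3.95% fell in intra-S livers. The summed neutrophil markers were 3.94 and 5.48 CPM in sham, 298 and 657 CPM in intra-C, and 1119 and 442 CPM in intra-S livers, and 12 and 13 of the 13 markers rose in intra-C and intra-S livers. Of the 10 monocyte and macrophage markers 8 rose in each group, and of the 8 endothelial markers 4 rose in each. Of the 6 megakaryocyte and platelet markers 3 rose in intra-C and 4 in intra-S livers. None of the tested markers of T and NK cells or of B and plasma cells rose or fell in either group. In intra-S livers 3 of 10 fibroblast and stellate cell markers and 2 of 8 markers of cholangiocytes and epithelial tumor cells (Krt18 and Sox9) also rose. The summed level of the latter list was 225 and 273 CPM in sham, 339 and 342 CPM in intra-C, and 638 and 547 CPM in intra-S livers. Krt8 and Krt18 carried much of this sum, with 306 and 231 CPM in the first intra-S liver, and Spp1 was at 180 CPM in the second. Krt7, Krt19 and Epcam were at most 0.860 CPM in any liver and did not rise. Whole liver was sequenced, so fewer cells of a type and less RNA per cell cannot be told apart. No label says that the livers of a group came from separate cages or experiments, so p-values measure only the spread between these livers.

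Serpin transcripts took a larger share of the library in both tumor groups. They made up 1.83% and 2.14% of all counts in sham, 3.22% and 3.06% in intra-C, and 3.68% and 3.77% in intra-S livers. The 3 ranges did not overlap. Clade a carried nearly all of this. Its summed level was 11661 and 14186 CPM in sham, 29551 and 25764 CPM in intra-C, and 35564 and 33016 CPM in intra-S livers, which is a ratio of the means of 2.14 and 2.65 against sham. On the length-corrected TPM scale the ratios were 1.89 and 2.19. Ranked by mean TPM over the 6 livers, Serpina3k led with 10529 TPM, followed by Serpina1b with 3445, Serpina3n with 3278, Serpina1c with 3081 and the antithrombin gene Serpinc1 with 1856 TPM. The order differed between groups, and Serpina3n was at 603 and 591 TPM in sham livers, below Serpinc1, Serpina1c and Serpina6. At the other end, Serpina3b, Serpina3j, Serpinb2 and Serpinb9b had too few counts to be tested, and their highest value in any liver was 0.343 CPM for Serpina3b.

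**Figure D1:**
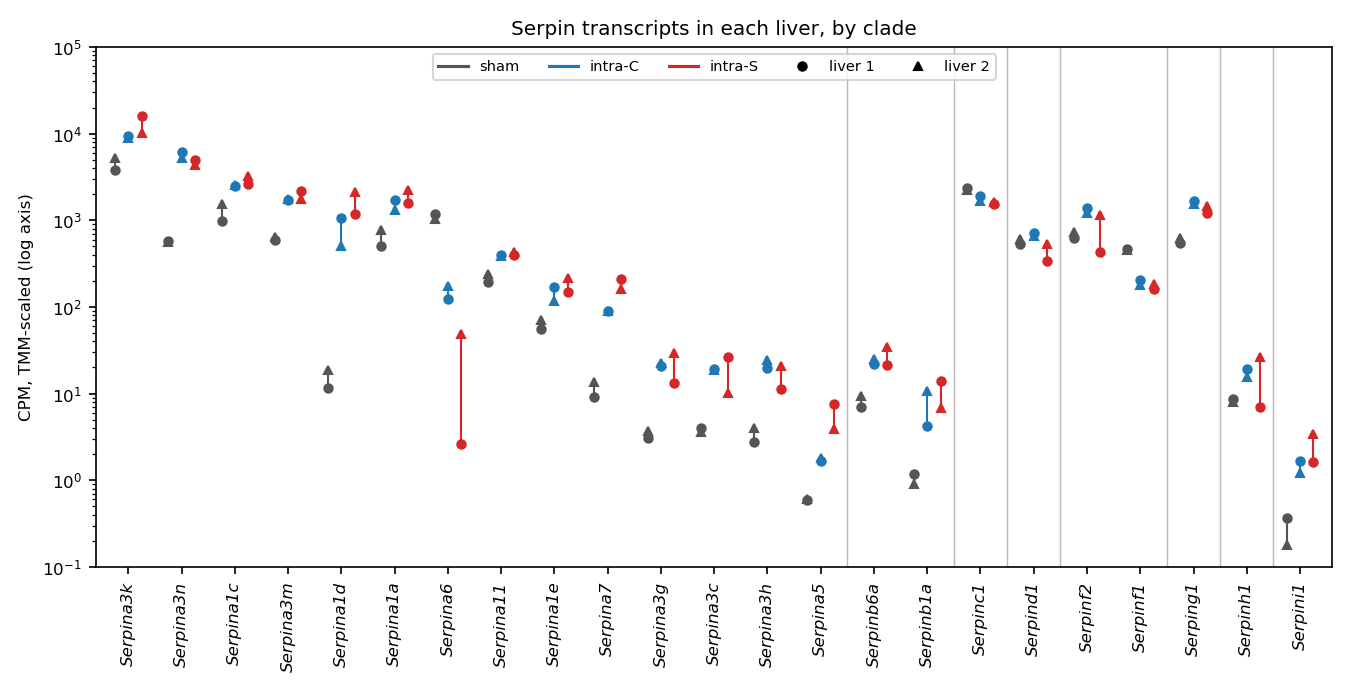
CPM (TMM-scaled, log axis) of the named serpins in each liver, ordered by clade and within a clade by mean TPM. Each point is 1 liver, circles for replicate 1 and triangles for replicate 2, with a line joining both livers of a group; Serpina1d, Serpina3n and Serpina7 lie higher in all 4 tumor livers, whereas Serpina6 spread widely between the intra-S livers.

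Among the 38 serpins tested, more rose than fell. In intra-C livers 12 rose (edgeR quasi-likelihood test, adjusted p under 0.05 over all 16370 genes tested), where 4.92% of all tested genes were called higher, and 1 fell, where 2.38% of all were called lower. The median log2 fold change of the tested serpins was 1.42, and that of all tested genes 0.01. In intra-S livers 20 rose, where 6.78% of all tested genes were called higher, and 2 fell, where 3.95% of all were called lower. The median log2 fold change was 1.65, and that of all tested genes 0.04. Both comparisons use the same sham livers. Clade a held 9 of the 12 and 15 of the 20 serpins that rose. Of the others, Serpinb1a, Serpinb6a and Serping1 rose in both groups, Serpini1 rose in intra-S livers, and none of clades c, d and h was called in either comparison. Several clade a rows are near copies of each other and are not independent of one another.

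These counts depend on which livers were in the fit. With either sham liver left out, edgeR called no gene of the whole table in either comparison, so no serpin either. Without either intra-C liver, 2 serpins were called higher in intra-C livers, where 0.323% to 0.352% of all genes were, and 6 in intra-S livers, where 1.97% to 2.13% were. Without either intra-S liver, 24 serpins were called higher and 4 lower in intra-C livers, but these fits also called 14.3% to 14.5% of all genes higher and 12% lower, so the 4 lower are near that background. With only sham and intra-S livers in the fit, 5 serpins were called higher, where 1.75% of all genes were. In these fits a group with 1 liver is assumed to vary like the others. The log2 fold change of Serpina3n in intra-C livers stayed between 3.06 and 3.46 over 16 alternatives, whereas those of Serpina6 and Serpinf2 in intra-S livers moved with the liver left out.

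**Figure D2:**
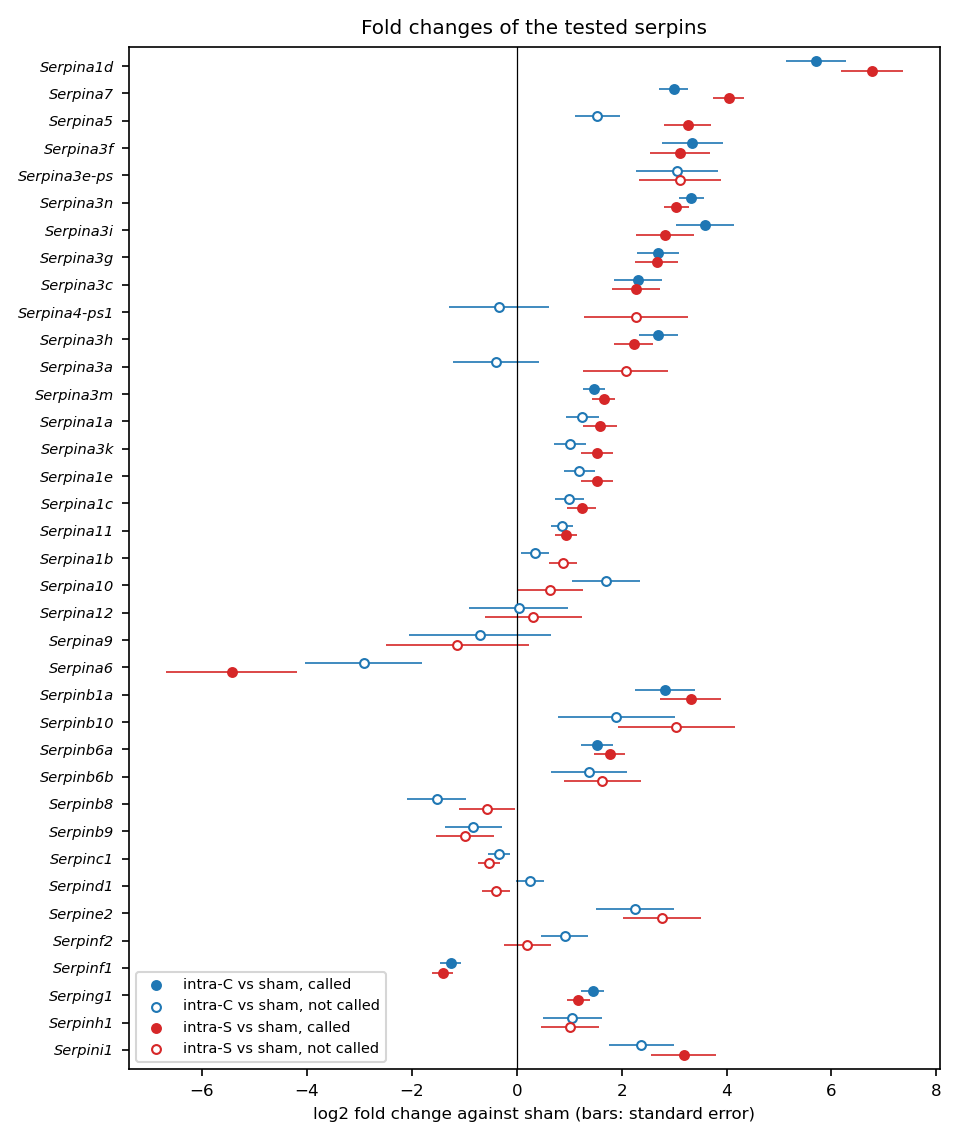
Log2 fold change against sham of tested serpins in intra-C (blue) and intra-S (red) livers, grouped by clade, with bars for the standard error. Filled points passed an adjusted p under 0.05 (edgeR); Serpina1d reached 5.70 and 6.77, and the wide bar of Serpina6 comes with intra-S livers that lie far apart.

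The Serpina1 genes are the mouse copies of the single human gene of alpha-1-antitrypsin, the main plasma inhibitor of neutrophil elastase. RNA levels do not show which proteases the product of each copy inhibits. Serpina1d stood out among the 5 copies. It was at 11.5 and 18.6 CPM in sham livers, 1064 and 503 CPM in intra-C livers, and 1175 and 2117 CPM in intra-S livers. Every tumor liver was above every sham liver, and the lowest tumor liver was 33.4-fold above the sham mean. The log2 fold change was 5.70 in intra-C (SE 0.57, adjusted p 0.00738 by edgeR) and 6.77 in intra-S livers (SE 0.60, adjusted p 0.00578), or 52.1-fold and 109-fold. Without the first intra-C liver the intra-C log2 fold change was 5.06. In rank of TPM among the 20140 genes Serpina1d went from 3769 and 2726 in sham to between 50 and 146 in the tumor livers.

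The other copies changed less. Serpina1a was at 507 and 764 CPM in sham, 1714 and 1310 CPM in intra-C, and 1566 and 2266 CPM in intra-S livers, with log2 fold changes of 1.25 (adjusted p 0.0664 by edgeR) and 1.59 (adjusted p 0.0314). Serpina1c was at 971 and 1528 CPM in sham, 2474 and 2533 CPM in intra-C, and 2656 and 3230 CPM in intra-S livers, with log2 fold changes of 1.00 (adjusted p 0.0837 by edgeR) and 1.24 (adjusted p 0.0437). Serpina1e, the least abundant copy in the tumor livers, was at 55.0 and 70.9 CPM in sham, 170 and 118 CPM in intra-C, and 149 and 214 CPM in intra-S livers. Its log2 fold changes were 1.19 (adjusted p 0.0626 by edgeR) and 1.53 (adjusted p 0.0291). All 3 rose in intra-S livers and missed the threshold in intra-C livers, although no tumor liver overlapped the sham livers. The intra-S calls of Serpina1a and Serpina1c were lost with library totals without TMM (adjusted p 0.0518 and 0.0863 by edgeR), with limma on TPM and with only sham and intra-S livers in the fit. That of Serpina1e was lost in 5 of 16 alternatives, among them the fit with only sham and intra-S livers. Serpina1b, the most abundant copy by mean TPM over the livers, was not called in either comparison. It was at 3462 and 3784 CPM in sham, 5378 and 3835 CPM in intra-C, and 5974 and 7372 CPM in intra-S livers. The second intra-C liver lay at the level of the second sham liver, and the adjusted p was 0.443 and 0.0827 (edgeR).

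The make-up of the Serpina1 pool also differed between sham and tumor livers, without overlap for any copy but Serpina1c. The gap was small for Serpina1a and Serpina1e. Of the summed TPM of the copies, Serpina1d held 0.385% and 0.484% in sham, 15.0% and 8.95% in intra-C, and 15.4% and 20.8% in intra-S livers. Serpina1b held 58.5% and 49.8% in sham and between 34.5% and 39.6% in the tumor livers. Summed to 1 row before the fit, the copies rose in intra-S livers (log2 fold change 1.26, adjusted p 0.0395 by edgeR) and not in intra-C livers (0.77, adjusted p 0.136). The split between copies is the least certain of these values. Of the 100-base windows of the GENCODE M21 transcript, 69.3% in Serpina1c, 49.9% in Serpina1a, 29.3% in Serpina1d, 20.6% in Serpina1b and 14.8% in Serpina1e were also found in a transcript of another gene, mostly another Serpina1 copy. Only uniquely aligned reads were counted, and the reads came from BALB/c mice while the reference genome is that of C57BL/6J, so that the copies were read against another strain. The part of this in the rise of Serpina1d was not tested.

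**Figure D3:**
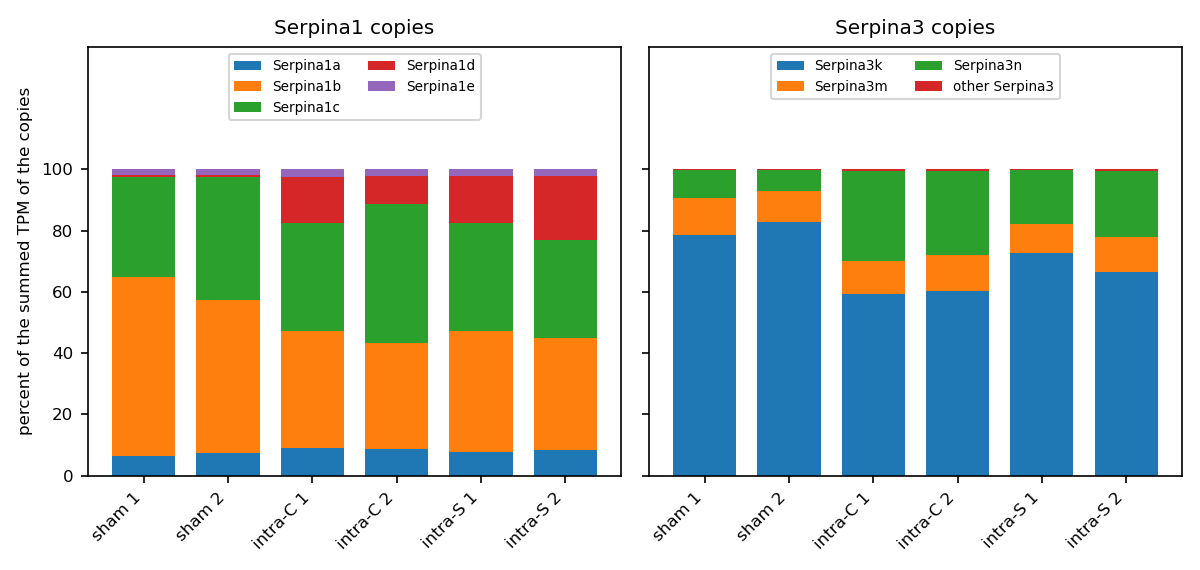
Percent of the summed TPM of the 5 Serpina1 copies (left) and of the Serpina3 copies (right) held by each copy, with 1 bar per liver. Serpina1d goes from under 0.5% in the sham livers to between 8.95% and 20.8% in the tumor livers, and Serpina3n from 9.05% and 6.89% to between 17.5% and 29.7%.

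The Serpina1 copies lie beside each other on the minus strand of chromosome 12, and their promoters are close relatives. The promoter windows of Serpina1b and Serpina1d are printed here because these copies had the smallest and the largest fold changes of the 5. They run from 250 bases before to 50 bases after the annotated start (RefSeq, GRCm38.p6), at chr12:103738140-103738439 for Serpina1b and chr12:103773584-103773883 for Serpina1d, both on the minus strand. Capitals mark the 29 bases of each window that differ from, or have no partner in, the other window.
Serpina1b: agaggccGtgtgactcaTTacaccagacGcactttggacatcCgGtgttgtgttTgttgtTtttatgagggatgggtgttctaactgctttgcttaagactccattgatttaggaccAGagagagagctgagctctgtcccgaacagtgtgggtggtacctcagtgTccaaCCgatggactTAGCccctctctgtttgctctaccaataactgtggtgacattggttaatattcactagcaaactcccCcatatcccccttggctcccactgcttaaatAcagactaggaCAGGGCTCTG
Serpina1d: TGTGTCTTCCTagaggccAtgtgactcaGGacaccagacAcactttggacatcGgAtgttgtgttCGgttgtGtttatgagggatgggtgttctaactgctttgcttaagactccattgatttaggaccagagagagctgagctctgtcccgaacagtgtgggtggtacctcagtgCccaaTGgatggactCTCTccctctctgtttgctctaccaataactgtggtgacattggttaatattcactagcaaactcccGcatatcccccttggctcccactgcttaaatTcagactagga
Both windows are 86.9% identical over an alignment of 312 columns. In each of them the letters TTGCNNAA, searched on both strands as a pattern bound by C/EBP factors, occur once, 161 bases before the start in Serpina1b and 149 bases before it in Serpina1d.

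The Serpina3 genes descend from the gene that encodes alpha-1-antichymotrypsin in humans, an acute phase inhibitor of cathepsin G, and form the largest group of serpin copies in the mouse. Of the 12 rows, 10 were tested, 7 rose in intra-C livers and 8 in intra-S livers, and none fell. Among all tested genes 4.92% and 6.78% were called higher in these groups, and 2.38% and 3.95% lower. Serpina3n, whose product inhibits granzyme B and leukocyte elastase, was by mean TPM the most abundant of the serpins that rose at least 8-fold in both groups. It was at 576 and 567 CPM in sham livers, 6164 and 5288 CPM in intra-C livers, and 5023 and 4389 CPM in intra-S livers. The livers of each group lay close together and the tumor livers were far above sham. The log2 fold change was 3.32 in intra-C (SE 0.24, adjusted p 0.00543 by edgeR) and 3.04 in intra-S livers (SE 0.24, adjusted p 0.00469).

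Serpina3k, whose product is also named contrapsin, was the most abundant serpin in every liver by TPM. It was at 3843 and 5224 CPM in sham, 9465 and 8901 CPM in intra-C, and 16008 and 10263 CPM in intra-S livers. All tumor livers were above sham, and the gene rose in intra-S livers (log2 fold change 1.53, adjusted p 0.0313 by edgeR) but missed the threshold in intra-C livers (1.02, adjusted p 0.0952). The intra-S call was lost with limma on TPM (adjusted p 0.0762 and 0.0916) and with only sham and intra-S livers (0.0896 by edgeR). Serpina3m was at 597 and 648 CPM in sham, 1709 and 1749 CPM in intra-C, and 2155 and 1774 CPM in intra-S livers. It rose in both groups, with log2 fold changes of 1.47 (adjusted p 0.0182 by edgeR) and 1.66 (adjusted p 0.0115).

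The less abundant copies that rose in both groups had larger fold changes than Serpina3k and Serpina3m. Serpina3g, an intracellular inhibitor of cathepsins known from activated lymphocytes and macrophages, was at 3.08 and 3.67 CPM in sham, 21.08 and 22.6 CPM in intra-C, and 13.2 and 29.7 CPM in intra-S livers. The log2 fold change was 2.69 (adjusted p 0.0191 by edgeR) and 2.67 (adjusted p 0.0155). The intra-S call of Serpina3g was lost in 5 of 16 alternatives, among them the fit with only sham and intra-S livers. Serpina3h, annotated as a transcribed pseudogene, was at 2.78 and 4.05 CPM in sham, 19.8 and 24.6 CPM in intra-C, and 11.2 and 20.8 CPM in intra-S livers, and rose in both groups. Serpina3c was at 3.97 and 3.64 CPM in sham, 19.2 and 18.6 CPM in intra-C, and 26.8 and 10.1 CPM in intra-S livers, and rose in both groups with log2 fold changes of 2.31 and 2.27, though the intra-S call was lost with limma on log2(TPM + 1) (adjusted p 0.0529) and with only sham and intra-S livers. Without the first intra-S liver the intra-S log2 fold change of Serpina3c was 1.41, and without the second that of Serpina3g was 1.97. For all 3 genes the intra-S livers were further apart than the livers of the other groups, and each intra-S liver was still above both sham livers. Serpina3f and Serpina3i also rose in both groups from levels of 0.158 to 0.296 CPM in sham, and reached 1.22 to 3.19 CPM in the tumor livers. Serpina3a was at 0.640 and 1.61 CPM in sham, 1.02 and 0.680 CPM in intra-C, and 7.90 and 1.67 CPM in intra-S livers. It overlapped between sham and intra-C livers, the second intra-S liver lay just above the sham range, and the gene was not called.

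As a pool, the Serpina3 copies summed to 5027 and 6452 CPM in sham, 17405 and 16011 CPM in intra-C, and 23248 and 16494 CPM in intra-S livers. The summed row rose in both groups, with log2 fold changes of 1.54 (adjusted p 0.0318 by edgeR) and 1.79 (adjusted p 0.0172). Within the summed TPM, Serpina3n went from 9.05% and 6.89% in sham to 29.7% and 27.5% in intra-C and 17.5% and 21.8% in intra-S livers. Serpina3k went from 78.7% and 82.8% to 59.4% and 60.3% in intra-C and 72.6% and 66.4% in intra-S livers. These copies are less alike than the Serpina1 copies. The share of 100-base windows found in another gene was at most 6.09%, in Serpina3m, and 0.204% in Serpina3n.

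An aligned stretch near the start of 6 Serpina3 genes is printed here to show how far the copies differ where a STAT-type pattern, the letters TTCNNNGAA, occurs in some of them. The windows are from RefSeq (GRCm38.p6) and lie at chr12:104127858-104127906 (Serpina3b, plus strand), chr12:104153959-104154007 (Serpina3c, minus), chr12:104214408-104214456 (Serpina3f, plus), chr12:104236099-104236147 (Serpina3g, plus), chr12:104263005-104263053 (Serpina3i, plus) and chr12:104406570-104406618 (Serpina3n, plus). Capitals mark the 9 bases aligned with the pattern.
Serpina3b: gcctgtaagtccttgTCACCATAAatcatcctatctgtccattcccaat
Serpina3c: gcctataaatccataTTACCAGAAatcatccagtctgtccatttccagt
Serpina3f: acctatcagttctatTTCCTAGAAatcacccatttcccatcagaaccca
Serpina3g: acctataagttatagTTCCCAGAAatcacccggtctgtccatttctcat
Serpina3i: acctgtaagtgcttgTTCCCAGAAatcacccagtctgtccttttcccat
Serpina3n: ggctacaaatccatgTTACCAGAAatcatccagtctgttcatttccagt
The pattern was matched in Serpina3f, Serpina3g and Serpina3i, whose 9 bases begin 121, 33 and 102 bases before the start. From a second annotated start of Serpina3f they begin 210 bases before. The pattern was not matched in Serpina3b, Serpina3c and Serpina3n. The promoters of Serpina3c and Serpina3n were 89.9% identical. Serpina3b had 0 counts in either sham library and 2 to 14 counts in the tumor livers.

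Promoter windows were given for 31 of the 42 members, as 36 entries. Among the members without one were Serpina3k, Serpina3m, Serpina6, Serpina10, Serpinb1a and Serping1. On either strand, TTCNNNGAA was present in 9 of these entries (25%) and in 8.30% of all 32851 entries. TTGCNNAA was present in 38.9% of the entries and in 10.8% of all, and TATAAA in 22.2% and in 13.6%. Copies share their sequence, so the entries are not independent, and a match describes letters and not a bound site. Among the genes that rose in both groups, Serpina1d, Serpina3f and Serpina7 held TTGCNNAA in at least 1 entry, and Serpina3f, Serpina3g, Serpina3i and Serpinb6a held TTCNNNGAA.

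Both hormone carriers of the family moved, and in opposite directions. They inhibit no protease and release their hormone when the loop is cut. Serpina6 encodes corticosteroid-binding globulin, the plasma carrier of corticosterone. It was at 1196 and 1047 CPM in sham livers, 124 and 173 CPM in intra-C livers, and 2.62 and 49.1 CPM in intra-S livers. All 4 tumor livers were below both sham livers, without overlap between any of the groups, and the first intra-S liver was 18.7-fold below the second. The gene fell in intra-S livers by 5.44 on the log2 scale (SE 1.26, adjusted p 0.0442 by edgeR), or 43.3-fold. In intra-C livers the log2 fold change was -2.92 (SE 1.12), or 7.56-fold lower, and was not called (adjusted p 0.158). The calls of Serpina6 changed with the livers in the fit. Fitted with sham and intra-C livers alone, the intra-C difference had an adjusted p of 4.77e-04, and over all alternatives it ran from 2.33e-04 to 0.486. The intra-S log2 fold change was -4.51 without the first and -8.74 without the second intra-S liver, and its adjusted p ran from 7.79e-05 to 0.175. The intra-S call was lost without either sham liver, without either intra-C liver, and with only sham and intra-S livers in the fit (adjusted p 0.0983).

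Serpina7 encodes thyroxine-binding globulin, the high-affinity carrier of thyroid hormone. It was at 9.11 and 13.5 CPM in sham, 89.7 and 90.6 CPM in intra-C, and 211 and 161 CPM in intra-S livers. The livers fell into 3 separate ranges, lowest in sham and highest in intra-S. The gene rose 7.96-fold in intra-C (log2 fold change 2.99, SE 0.28, adjusted p 0.00702 by edgeR) and 16.4-fold in intra-S livers (4.04, SE 0.29, adjusted p 0.00446). The difference between intra-S and intra-C livers was 1.04 on the log2 scale (SE 0.26) with an adjusted p of 0.285. In rank of TPM it went from 5849 and 4738 in sham to 565 and 706 in intra-S livers. Serpina7 is the one clade a member outside chromosome 12, at chrX:139079249-139085236. Its start region is printed here because it is a single gene without a close copy in the family. It lies at chrX:139085221-139085286 on the minus strand (RefSeq, GRCm38.p6), and capitals mark a match to TTGCNNAA, read on the other strand, 47 bases before one annotated start and a TATAAA 27 bases before it. From a second RefSeq start, at the outer end of the gene, the same matches lie 30 and 10 bases before.
Serpina7: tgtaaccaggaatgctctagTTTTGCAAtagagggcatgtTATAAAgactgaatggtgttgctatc

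The other clade a genes were mixed. Serpina5 encodes protein C inhibitor, which in the mouse is found mainly in the reproductive tract. It was at 0.591 and 0.611 CPM in sham, 1.68 and 1.82 CPM in intra-C, and 7.67 and 3.92 CPM in intra-S livers. The groups did not overlap, and the gene rose in intra-S livers (log2 fold change 3.26, adjusted p 0.0132 by edgeR) and missed the threshold in intra-C livers (1.54, adjusted p 0.0844). Serpina11 was at 194 and 241 CPM in sham, 400 and 390 CPM in intra-C, and 400 and 430 CPM in intra-S livers. It rose in intra-S livers by a log2 fold change of 0.93 (adjusted p 0.0409 by edgeR) and was not called in intra-C livers, where the log2 fold change was 0.86 (adjusted p 0.0602). The intra-S call was lost in 9 of 17 alternatives, among them library totals without TMM (adjusted p 0.104), the replicate block (0.0580 by edgeR) and limma on TPM (0.0777 and 0.0806). Of its transcript windows 41.9% are shared with the overlapping gene Gm28577, so reads of both cannot be fully separated. Serpina10 encodes the inhibitor that acts with protein Z on factor X. It was at 221 and 241 CPM in sham and 726 and 778 CPM in intra-C livers, but at 125 and 592 CPM in intra-S livers, 1 below and 1 above sham. It was not called in either comparison (adjusted p 0.153 and 0.535 by edgeR).

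Serpina9, known from germinal center B cells, was at 2.36 and 2.65 CPM in sham and at 0 counts in the first intra-S liver, which allows up to 0.0875 CPM at this depth. The second intra-S liver was at 2.26 CPM, close to sham. Serpina4-ps1, a transcribed pseudogene, differed 5.80-fold between the sham livers and was not called. Serpina12, which encodes vaspin, stayed under 1 CPM and overlapped between the groups. Serpina3e-ps was also under 1 CPM in all livers, and its log2 fold changes of 3.05 and 3.11 had adjusted p-values of 0.0682 and 0.0545 (edgeR).

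The 24 clade a genes of chromosome 12 lie within 797.7 kb, at chr12:103616675-104414334 of GRCm38. In this order the genes with the largest changes were not all neighbours. Serpina6 (chr12:103646630-103657218), with the lowest fold changes of the cluster, lies between Serpina10 and Serpina1b. Serpina1d (chr12:103763587-103773633), with the highest, lies between Serpina1b and Serpina1a. Serpina3n (chr12:104406646-104414334) is the last gene of the cluster. From Serpina3c to Serpina3n every tested gene had a log2 fold change above 1 in both groups. Of the genes before Serpina3c only Serpina1d was called in intra-C livers. Neighbouring copies share sequence, and these stretches were picked after their values were seen, so the order is a description.

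**Figure D4:**
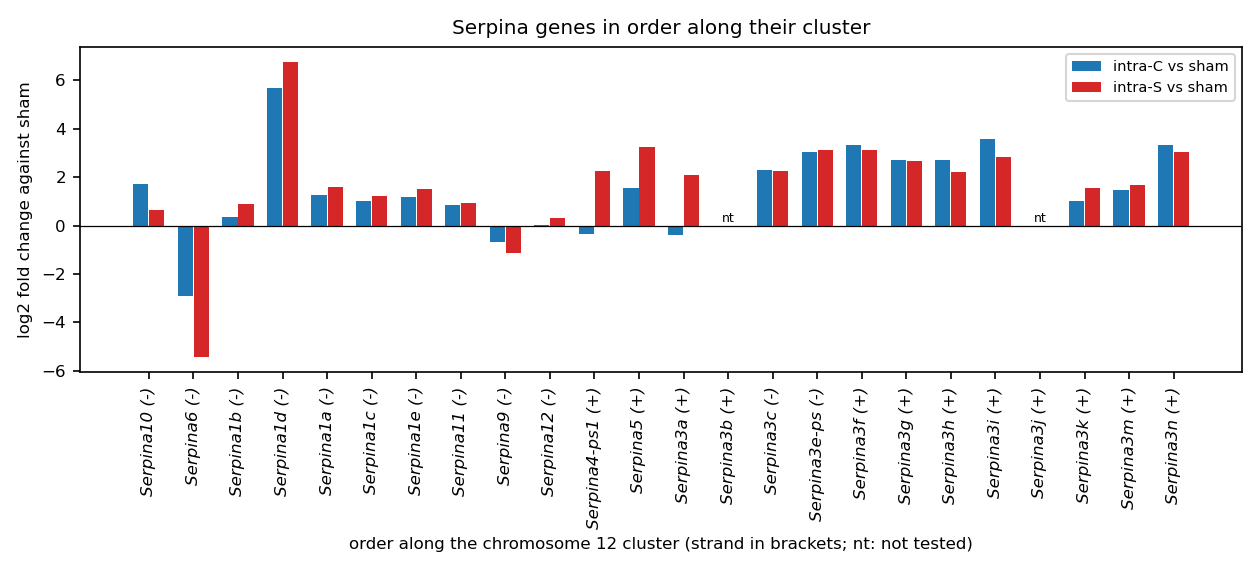
Log2 fold change against sham of the clade a genes in their order along the chromosome 12 cluster, in intra-C (blue) and intra-S (red) livers, with nt for genes that were not tested. Serpina6 is the gene furthest below 0, at -2.92 and -5.44, and lies 2 places from Serpina1d, the gene furthest above 0.

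Clade b serpins act mostly inside cells and shield them from their own granule proteases. Of 8 members 6 were tested, 2 rose in both tumor groups and none fell. Beside this, 4.92% of all tested genes were called higher and 2.38% lower in intra-C livers, and 6.78% and 3.95% in intra-S livers. Serpinb1a, an inhibitor of neutrophil elastase, proteinase 3 and cathepsin G that is abundant in neutrophils, was at 1.18 and 0.905 CPM in sham, 4.28 and 10.6 CPM in intra-C, and 14.1 and 6.74 CPM in intra-S livers. All tumor livers were above sham although the livers of each tumor group differed more than 2-fold. The log2 fold change was 2.83 (SE 0.57, adjusted p 0.0393 by edgeR) and 3.31 (SE 0.58, adjusted p 0.0225). The intra-C call was lost in 7 of 17 alternatives, among them the replicate block (adjusted p 0.0571 by edgeR) and limma on TPM (0.0782 and 0.0541). Without the second intra-C liver the intra-C log2 fold change was 2.06, and without the first intra-S liver the intra-S one was 2.70. The summed neutrophil markers were higher in the same livers, and within each tumor group the liver with more of them also had more Serpinb1a. Their part in the result was not tested.

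Serpinb6a, an inhibitor of cathepsin G found in many cell types, was at 6.97 and 9.37 CPM in sham, 22.1 and 25.1 CPM in intra-C, and 21.3 and 34.5 CPM in intra-S livers. It rose in both groups without overlap, with log2 fold changes of 1.53 (adjusted p 0.0353 by edgeR) and 1.77 (adjusted p 0.0203). The intra-C call was lost in 7 of 17 alternatives, among them library totals without TMM (adjusted p 0.0661 by edgeR) and limma on TPM (0.0630 and 0.0574). Serpinb8 and Serpinb9 lay on the other side of sham. Serpinb9, which protects cells from granzyme B, was at 7.88 and 7.90 CPM in sham, 4.28 and 4.61 CPM in intra-C, and 1.72 and 6.20 CPM in intra-S livers. All tumor livers were below sham. Its log2 fold changes of -0.83 and -0.99 did not pass the test. Serpinb8 was at 4.38 and 4.46 CPM in sham and 1.58 and 1.48 CPM in intra-C livers (log2 fold change -1.53, adjusted p 0.143 by edgeR), and the intra-S livers lay at 1.40 and 4.56 CPM, 1 far below sham and 1 at its level.

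The genes of the clotting inhibitors antithrombin and heparin cofactor II were not called in either group. Serpinc1, the gene of antithrombin, the main plasma inhibitor of thrombin, was at 2340 and 2208 CPM in sham, 1926 and 1664 CPM in intra-C, and 1527 and 1645 CPM in intra-S livers. Every tumor liver was below both sham livers, but by little, and the log2 fold changes of -0.34 and -0.52 were not called (adjusted p 0.346 and 0.155 by edgeR). Its transcript overlaps Zbtb37, with 58.4% of its windows shared. Serpind1, the gene of heparin cofactor II, was at 540 and 605 CPM in sham, 712 and 658 CPM in intra-C, and 342 and 532 CPM in intra-S livers. The intra-C livers lay above sham and the intra-S livers below it, and neither difference was called. Scaled by library totals without TMM, the intra-C log2 fold change was -0.0035.

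Both clade f genes lie side by side on chromosome 11, at chr11:75410029-75422623 and chr11:75431736-75439501. Serpinf1 encodes pigment epithelium-derived factor, an inhibitor of vessel growth that inhibits no protease. It was at 471 and 450 CPM in sham, 205 and 181 CPM in intra-C, and 162 and 184 CPM in intra-S livers. The sham livers were more than 2-fold above every tumor liver. It was the one serpin that fell in both groups, by 1.26 on the log2 scale in intra-C (SE 0.20, adjusted p 0.0227 by edgeR) and by 1.41 in intra-S livers (SE 0.20, adjusted p 0.0142). The intra-C call was lost in 4 of 17 alternatives. The intra-S call was lost in 5 of 17, among them the fit with only sham and intra-S livers. The neighbouring gene Serpinf2, which encodes alpha-2-antiplasmin, the main plasma inhibitor of plasmin, was at 630 and 738 CPM in sham, 1371 and 1210 CPM in intra-C, and 426 and 1150 CPM in intra-S livers. The intra-C livers were above sham, the intra-S livers lay on both sides of it, and neither difference was called (adjusted p 0.242 and 0.791 by edgeR). The intra-S log2 fold change of Serpinf2 was 0.75 without the first intra-S liver (adjusted p 0.0196) and -0.68 without the second (adjusted p 0.0234, range over the alternatives 0.0196 to 0.969), so its direction rests on single livers. Serpine2, which encodes protease nexin 1, was at most 1.47 CPM in any liver and was not called.

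Serping1 encodes the C1 inhibitor, which controls the first proteases of complement as well as kallikrein and factor XII. It was at 548 and 623 CPM in sham, 1671 and 1529 CPM in intra-C, and 1198 and 1451 CPM in intra-S livers. All tumor livers were well above sham. The gene rose 2.73-fold in intra-C (log2 fold change 1.45, SE 0.22, adjusted p 0.0200 by edgeR) and 2.26-fold in intra-S livers (1.18, SE 0.22, adjusted p 0.0264). The intra-S call was lost in 8 of 17 alternatives, among them library totals without TMM (adjusted p 0.0580 by edgeR) and limma on TPM (0.0545 and 0.0572).

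Serpinh1 encodes HSP47, a chaperone that folds procollagen in the endoplasmic reticulum. It was at 8.62 and 8.06 CPM in sham, 19.1 and 15.6 CPM in intra-C, and 7.05 and 26.6 CPM in intra-S livers. The intra-S livers lay on both sides of the sham livers, and the gene was not called in either comparison. Without the second intra-S liver its log2 fold change was -0.24. Summed fibroblast and stellate cell markers were 257 and 238 CPM in sham, 294 and 274 CPM in intra-C, and 393 and 448 CPM in intra-S livers, and their part was not tested. Serpini1 encodes neuroserpin, an inhibitor of tissue plasminogen activator known from neurons. It was at 0.369 and 0.181 CPM in sham, 1.65 and 1.21 CPM in intra-C, and 1.63 and 3.38 CPM in intra-S livers. All tumor livers were above sham at a low level, and the gene rose in intra-S livers (log2 fold change 3.18, adjusted p 0.0300 by edgeR) and missed the threshold in intra-C livers (2.37, adjusted p 0.0700). The intra-S log2 fold change was 3.77 without the first sham liver, where it was not called, and 2.56 without the second intra-S liver.

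Compared directly, no serpin was called between intra-S and intra-C livers. At an adjusted p under 0.05 edgeR called 0 of the 38 in either direction, as it called 0% of all genes. At an unadjusted p under 0.05 there were 5 higher in intra-S (Serpina4-ps1, Serpina3a, Serpina5 and Serpina7 among them) and 1 lower (Serpind1), where 6.99% and 6.41% of all tested genes were higher and lower. DESeq2 called 3 higher and 0 lower, where it called 1.55% and 1.81% of all genes. Without the first intra-S liver edgeR called 1 higher and 0 lower, where 0.137% and 0.176% of all genes were called. Without the second it called 5 higher and 7 lower, where 7.53% and 9.02% of all were. The serpins that rose in intra-S livers but were not called in intra-C livers, such as Serpina3k and Serpina5, are therefore not shown to differ between these groups.

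The intra-S livers lay far apart for several serpins as well. Of the 26 serpins with a mean of at least 5 CPM, 9 differed more than 2-fold between the intra-S livers, 3 between the intra-C livers and 1 between the sham livers. Among all genes at this level the shares were 17.7%, 3.28% and 1.27%. Among the 9 were Serpina3c, Serpina3g, Serpina6, Serpina10, Serpinb1a, Serpinb9, Serpinf2 and Serpinh1. Serpina3n, Serpinf1, Serping1 and Serpinc1 differed by less than 1.3-fold within every group.

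**Figure D5:**
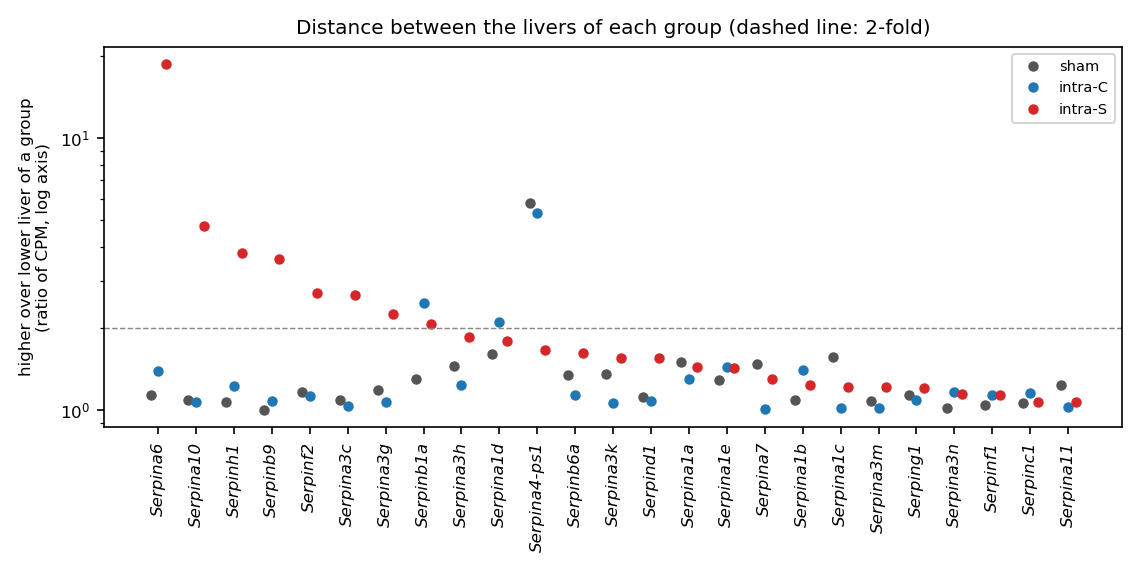
Ratio of the higher to the lower liver of each group in CPM (log axis) for serpins with a mean of at least 5 CPM, ordered by the ratio in intra-S livers. The dashed line marks 2-fold; several serpins of the intra-S group lie above it, led by Serpina6, against 1 of the sham group.

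The targets and helpers of serpins were taken from a list of 89 genes written from general knowledge, which held proteases, cofactors, clearance receptors and other secreted protease inhibitors. The table held 78 of them and 75 were tested. In intra-C livers 19 rose and 0 fell, with a median log2 fold change of 0.77, and in intra-S livers 22 rose and 1 fell, with a median of 0.62. The same percentages of all tested genes as above (4.92% and 2.38%, 6.78% and 3.95%) stand beside these counts.

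The calls among the proteases were spread over their classes as follows. Of 14 proteases and relatives of clotting and fibrinolysis, 1 rose in intra-C livers (Hgf, a growth factor of plasminogen-like structure) and 2 in intra-S livers (Hgf and Plau, the urokinase gene). Of 9 complement proteases, Cfi, the gene of factor I, rose in both groups. Of 10 granule and lysosomal proteases 4 rose in both groups, namely Elane, Ctsg, Prtn3 and Ctss. Elane, the gene of neutrophil elastase, was at 0 counts in both sham livers, at 226 and 449 counts in intra-C, and at 271 and 275 counts in intra-S livers. Ctsg, the gene of cathepsin G, had 0 counts in either sham library and 138 to 246 counts in the tumor livers. Both are targets of the Serpinb1a product and are also neutrophil genes. Prtn3, the gene of proteinase 3, was at 0.197 and 0.181 CPM in sham, 56.2 and 49.7 CPM in intra-C, and 17.1 and 48.8 CPM in intra-S livers, and rose by log2 fold changes of 8.11 and 7.43. Summed neutrophil markers rose with these genes, and their part was not tested. Of 6 digestive and membrane proteases none rose. Tmprss6, a hepatocyte protease that lowers hepcidin, was at 372 and 388 CPM in sham, 349 and 303 CPM in intra-C, and 204 and 197 CPM in intra-S livers, and fell by 0.92 on the log2 scale in intra-S livers (adjusted p 0.0359 by edgeR).

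Of 13 cofactors, binding partners and clearance receptors 4 rose in each group. In both, these included Thbd, the gene of thrombomodulin, Pros1, the gene of protein S, and the integrin gene Itgb3. The fourth was Vtn, the gene of vitronectin, in intra-C livers and Plaur, the urokinase receptor gene, in intra-S livers. Of 23 other secreted inhibitors 9 rose in intra-C and 11 in intra-S livers. A2m, which encodes the broad protease trap alpha-2-macroglobulin, was at 3 and 0 counts in sham livers, 117 and 103 CPM in intra-C livers, and 108 and 229 CPM in intra-S livers. Stfa2 and Stfa3, which encode stefins that inhibit cysteine proteases, were at 0 counts in both sham livers. Stfa2 was at 66 and 35 counts in intra-C and 137 and 53 counts in intra-S livers and rose in both groups, and Stfa3 was at 44 and 13 and at 102 and 17 counts and rose in intra-S livers and was not called in intra-C livers. Pzp, a relative of A2m, the inter-alpha-inhibitor heavy chain genes Itih3 and Itih4, the kininogen genes Kng1 and Kng2, and Slpi, which encodes an inhibitor of neutrophil elastase, also rose in both groups. Ambp, the gene of bikunin and alpha-1-microglobulin, rose in intra-C livers, and Tfpi, the gene of the tissue factor pathway inhibitor, and Timp1, an inhibitor of matrix metalloproteases, rose in intra-S livers. No fold is given for genes at 3 counts or fewer in both sham livers.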

How the data were processed

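By the submitters' processing notes and the paper, reads were aligned with HISAT2 2.1.0 against mm10 and assigned to exons with featureCounts (Subread 2.0.6), and the authors deposited raw counts per gene without normalization. The authors also deposited TPM values made from these counts and gene lengths, which were used here for levels between genes, ranks and an alternative test. The gene annotation and the strand setting are not given in the sources used here, so reads of overlapping genes may not be separated. Libraries came from poly(A) RNA.

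Later steps used R 4.3.3, edgeR 4.0.16 and Python 3.11.15. Counts of all 6 livers and 3 groups were fitted together with edgeR's quasi-likelihood model after TMM scaling and filterByExpr (count minimum 10). P-values were adjusted by Benjamini-Hochberg across all 16370 tested genes, with a threshold of 0.05. A gene rose or fell where it passed. The standard error (SE) given with a fold change is the absolute log2 fold change divided by the square root of the quasi-likelihood F statistic. With 2 livers a group, an exact two-sided permutation test of a single value cannot go below 0.333, so none was used. A count of 0 allows up to 3 counts, or 0.0679 to 0.0928 CPM, which covers counting error only.

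The members and gene lists were chosen with earlier results of these data known. Serpins are given in full where they were called and had a mean of at least 5 CPM in a group, or were the most abundant of their clade by TPM. 1 member is included in the counts, but its own values are not reported here and it is not drawn in the figures. Serpina1b, Serpina10, Serpinb8, Serpinb9 and other members outside this rule were added after their values were seen. Partner genes are given with values where called, up to 5 per direction by log2 fold change, at a mean of at least 1 CPM in a group, and the other called ones are only named.

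Gene positions and promoters came from RefSeq (GRCm38.p6, the build of mm10). All 42 members were found by symbol in its gene table and 31 in its promoter table. Transcripts for the check of shared 100-base windows came from GENCODE M21. The alternatives were DESeq2 1.42.0, other filters, scalings and spread estimates, limma 3.58.1 on log2(TPM + 1) and log2(TPM + 0.1), only the compared groups, a replicate block, summed copies and each liver left out in turn. Samples with the same replicate number did not deviate together.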

Additional observations from a re-analysis of the deposited data

Results flagged for a closer look

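Serpind1, the gene of heparin cofactor II, was flagged because both intra-C livers lay above both sham livers (712 and 658 against 540 and 605 CPM) while both intra-S livers lay below them (342 and 532 CPM). The log2 fold change of intra-S against intra-C livers was -0.65 (SE 0.27), with an unadjusted p of 0.0474 and an adjusted p of 0.371 by edgeR. Scaled by library totals without TMM, the intra-C livers lay at 645 and 648 CPM, inside the sham range of 608 to 688 CPM. Without the second intra-S liver the difference was -1.004 with an adjusted p of 0.00858 (range over the alternatives 0.00858 to 0.760), and without the first it was -0.36.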

How the results depend on the processing

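In intra-C livers the number of serpins called higher was 12 and became 21 with DESeq2 (10% of all genes), 24 with only sham and intra-C livers in the fit (16.3% of all genes) and 5 with the Serpina1 and Serpina3 copies summed to 1 row each (4.85% of all genes). It stayed between 10 and 12, where 3.04% to 5.77% of all genes were called higher, with limma, a robust spread, unfiltered counts, library totals in place of TMM, TMM from all but the 100 most abundant genes, and a minimum of 10 counts per liver. Over the fits with 1 liver left out it ran from 0 to 24, and the number called lower, 1 in the fit of all livers, from 0 to 4, with 4 also when only sham and intra-C livers were used (14.2% of all genes). In intra-S livers the number called higher was 20 and became 5 with only sham and intra-S livers (1.75% of all genes), 11 with limma on log2(TPM + 1) (4.18%) and 10 with summed copies (6.7%). Left-out livers gave 0 to 25 (0% to 17.3% of all genes). The number called lower was 2, became 0 with only these groups, and ran from 0 to 9 over the left-out livers (0% to 15.4% of all genes). The lowest numbers called higher come from leaving out a sham liver, which left edgeR without any call in the whole table. The highest values come from fits that hold 1 intra-S liver or none. Why the counts moved was not tested. Between intra-S and intra-C livers DESeq2 called 3 higher, and left-out livers gave 0 to 5 higher and 0 to 7 lower.

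Of the partner genes, 19 rose in intra-C livers. There were 38 with DESeq2 and 43 with only sham and intra-C livers, beside the same shares of all genes as above, and 0 to 45 with a liver left out (0% to 14.5% of all genes). The number lower was 0 and became 2 with DESeq2 (6.31% of all genes), 5 with only the compared groups (14.2%), 1 with library totals without TMM (4.89%), 1 with limma at either pseudocount (5.47% and 5.44%), and 0 to 5 with a liver left out (0% to 12%). In intra-S livers 22 rose, against 14 with a minimum of 10 counts per liver, 8 with only the compared groups and 0 to 38 with a liver left out (0% to 17.3% of all genes). The number lower was 1, and became 2 with DESeq2, 0 with only the compared groups, 3 with limma at either pseudocount (9.49% and 9.02% of all genes) and 0 to 8 with a liver left out (0% to 15.4% of all genes), counts at or below the share of all genes.

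Replicate numbers are shared by the groups, but no pairing of livers is given, and same-numbered livers did not deviate together (correlation of deviations -0.03, 0.08 and 0.04). With the replicate block 11 serpins rose in intra-C and 19 in intra-S livers, where 4.11% and 5.83% of all genes were called higher, and 0 partner genes fell in intra-S livers, where 3.38% of all genes were called lower.

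The median log2 fold change of all genes was 0.01 in intra-C and 0.04 in intra-S livers, and became -0.25 and -0.23 with library totals without TMM and -0.17 and -0.26 with limma on log2(TPM + 0.1). With library totals without TMM, Serpind1 in intra-C livers had a log2 fold change of -0.0035 and Serpinf2 in intra-S livers of -0.0337. With limma on log2(TPM + 1) and log2(TPM + 0.1), Serpinf2 in intra-S livers was at -0.259 and -0.260, and Serpina11 between intra-S and intra-C livers at -0.0374 and -0.0375. With a liver left out, the intra-S log2 fold change ran from -0.68 to 0.75 for Serpinf2 and from -0.24 to 1.68 for Serpinh1. Between intra-S and intra-C livers it ran from -0.91 to 0.50 for Serpina3c, from -0.73 to 0.44 for Serpina3g, from -0.13 to 1.27 for Serpinb1a, from -0.15 to 0.55 for Serpinb6a and from -1.30 to 0.62 for Serpinh1. None of these had passed the test with all livers.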
